A study of Mus musculus with 6 samples.

Results

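The variable (V) gene segments of the T cell receptor were the rows of the deposited gene count table whose biotype was TR_V_gene, 144 of 54532 rows in all. By name, 108 of these rows were Trav (alpha chain), 22 were Trbv (beta chain), 1 was Trgv (Trgv2, gamma chain) and 5 were Trdv (delta chain). The other 8 carried different names, namely 6 gamma chain segments listed as Tcrg-V and the rows B230359F08Rik and C920008G01Rik inside the alpha locus. The rule uses biotype and name and no measured value, although the set was proposed with earlier results of these data known.

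The study sequenced RNA of mouse cells in which T cells were cocultured with antigen-presenting cells that were untreated (control, 3 libraries) or treated with DB2313 (3 libraries), a small-molecule inhibitor of the transcription factor Spi1 (PU.1). The labels call the T cells primary T cells and the partner DC cells, whereas the study's methods describe splenic CD8T cells, activated with beads carrying anti-CD3 and anti-CD28 antibodies, and macrophages activated with IFN-γ at 10 ng/mL for 12 hr, with 14 nM DB2313 and 24 hr of coculture at equal cell numbers. Anti-CD3 and anti-CD28 activation and the coculture were thus common to both groups, and no strain, age or genotype of the T cell donors was used here. Nothing in the sources says that the 3 libraries of a group came from separate cultures or animals, so p-values measure the spread between these libraries, which may be technical.

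An alpha-beta T cell makes its receptor by joining 1 V segment of the alpha locus to a joining (J) segment, and 1 V segment of the beta locus to a diversity (D) and a J segment, and the joined exon is then spliced to a constant (C) gene. Gamma-delta T cells do the same at the gamma and delta loci. Many clones share a V segment, since it is the junction that identifies a clone, and the share of counts on each segment is called usage. The mouse alpha locus holds several rounds of duplication, so that many Trav segments have close copies, marked by the suffix d or n in their names, and some alpha segments can also be used by the delta chain, marked by dv. In bulk RNA, more cells that use a segment and more receptor RNA per cell cannot be told apart.

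Alpha and beta segments differed in how much of their sequence was shared with other V rows. Below are the last 60 coding bases of 8 Trbv segments, the end at which the segment is joined to D and J, read 5′ to 3′ from the GENCODE M21 transcripts (mouse GRCm38). The 3 members of the Trbv13 family, the other leading segments and the inverted Trbv31 are shown, with the string TGTGCCAGC in capitals where it occurs.
Trbv13-2 (chr6:41121773-41121832, plus strand): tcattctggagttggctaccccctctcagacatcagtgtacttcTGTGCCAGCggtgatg
Trbv13-3 (chr6:41130526-41130585, plus strand): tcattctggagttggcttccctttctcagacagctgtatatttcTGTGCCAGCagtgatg
Trbv13-1 (chr6:41116409-41116468, plus strand): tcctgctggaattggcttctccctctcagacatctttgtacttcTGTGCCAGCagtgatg
Trbv3 (chr6:41048769-41048828, plus strand): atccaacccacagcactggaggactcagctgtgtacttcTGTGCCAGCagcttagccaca
Trbv2 (chr6:41047936-41047995, plus strand): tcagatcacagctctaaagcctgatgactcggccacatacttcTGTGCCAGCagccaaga
Trbv1 (chr6:40891826-40891885, plus strand): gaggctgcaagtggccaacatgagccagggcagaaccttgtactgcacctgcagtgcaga
Trbv16 (chr6:41152171-41152230, plus strand): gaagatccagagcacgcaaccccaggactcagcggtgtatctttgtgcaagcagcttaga
Trbv31 (chr6:41557691-41557750, minus strand): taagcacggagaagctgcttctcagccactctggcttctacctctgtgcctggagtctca
The string was found in the last 60 coding bases of 13 of the 22 Trbv rows (59.1%) and of 0 of the 108 Trav rows, and on the opposite strand in none of either. Trbv rows with the string held 65.3% ± 1.03 of Trbv counts in control and 66.5% ± 1.24 in DB2313 libraries (SD, n = 3 each), shares whose ranges overlapped.

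Trbv segments differ enough in sequence for single reads to be assigned. Of all 50-base windows of a Trbv row, at most 1.19% also occurred in another V row or V pseudogene, and 19 of 22 rows shared none. Trbv13-2, the beta segment with the highest level, matched Trbv13-3 at 308 of 340 bases (90.6%) and Trbv13-1 at 272 of 334 bases (81.4%), counted from the joining end. Its row spans chr6:41121396-41121832 on the plus strand, and its end is the first of those printed above.

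Trav copies can be identical. The next 3 lines give the same 100-base stretch of Trav4-4-dv10 and its d and n copies, with the bases that differ among them in capitals. Trav4-4-dv10 is shown because its share fell, and its copies because the counts of Trav4n-4 lay in 1 library.
Trav4-4-dv10 (chr14:53684009-53684108, plus strand): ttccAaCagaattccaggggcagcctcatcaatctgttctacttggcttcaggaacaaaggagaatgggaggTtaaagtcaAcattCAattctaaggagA
Trav4n-4 (chr14:53302391-53302490, plus strand): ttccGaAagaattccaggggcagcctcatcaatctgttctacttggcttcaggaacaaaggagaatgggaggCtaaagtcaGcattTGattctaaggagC
Trav4d-4 (chr14:52991221-52991320, plus strand): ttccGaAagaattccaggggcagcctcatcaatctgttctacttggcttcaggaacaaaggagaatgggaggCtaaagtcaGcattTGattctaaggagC
Over the 331 compared coding bases, Trav4n-4 and Trav4d-4 were identical, and each matched Trav4-4-dv10 at 323 (97.6%). In the printed stretch 7 bases differed, so a read could be placed on the Trav4-4-dv10 side only where it covered such a base.

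All 144 rows were accounted for. Of these, 125 had at least 1 count and 19 had 0 counts in every library (17 Trav rows, Trdv2-1 and C920008G01Rik). A count of 0 still allows up to 3 counts, or 0.0822% of the V counts of the smallest library, and counting intervals and such limits cover counting error only. The filter on low counts kept 64 rows for testing (39 Trav, 19 Trbv, Trgv2, 2 Trdv and 3 others). Of the 64, 12 had all 3 DB2313 but not all 3 control libraries over the filter's count limit and 2 had the reverse, so some rows entered through the group in which they were high.

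The libraries held 16611975 to 18596217 gene counts. V segments took 3919, 3828 and 3648 counts in the control libraries and 5997, 5244 and 5241 in the DB2313 libraries. Scaled to library size by TMM (a factor that sets aside the genes that change most), this was 220.6 ± 3.21 and 305.2 ± 19.9 CPM (SD, n = 3), where CPM are counts scaled to a common library total. The V counts of the 2 groups did not overlap. The cells labelled as T cells carried the defining T cell genes, but Cd4 was present beside Cd8a and Cd8b1. In CPM per kilobase of gene length, Cd4 stood at 52.7 ± 0.628, Cd8a at 32.5 ± 1.08, Cd8b1 at 72.3 ± 4.04 and Foxp3, the factor of regulatory T cells, at 28.3 ± 0.457 in control libraries (SD, n = 3), so RNA typical of CD4 T cells and regulatory T cells was measured beside that of CD8T cells.

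V segment counts rose with DB2313 in all the large families. Trbv summed to 2711, 2705 and 2512 counts in control and 4256, 3613 and 3647 in DB2313 libraries. The log2 change of the Trbv sum was 0.47 (SE 0.04, adjusted p = 4.89e-09, edgeR quasi-likelihood test with Benjamini-Hochberg adjustment over all genes tested). Trav summed to 1027, 907 and 954 counts against 1437, 1336 and 1258, a log2 change of 0.42 (SE 0.06, edgeR adjusted p = 3.23e-06). In both families the groups did not overlap.

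The gamma and delta segments were far less abundant. Trgv2 had 76, 74 and 64 counts in control and 112, 91 and 94 in DB2313 libraries, with a log2 change of 0.41 (SE 0.17) that missed the threshold as a family sum (edgeR adjusted p = 0.0526). With the 6 Tcrg-V rows added to Trgv2, a grouping chosen after seeing the data, the gamma sum rose by a log2 of 0.62 (SE 0.12, edgeR adjusted p = 0.000196). Trdv summed to 50, 60 and 57 against 87, 72 and 84 counts, a log2 change of 0.47 (SE 0.19, edgeR adjusted p = 0.0477), and this call was lost when any of the 6 libraries was left out (adjusted p from 0.0561 to 0.186).

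**Figure D1:**
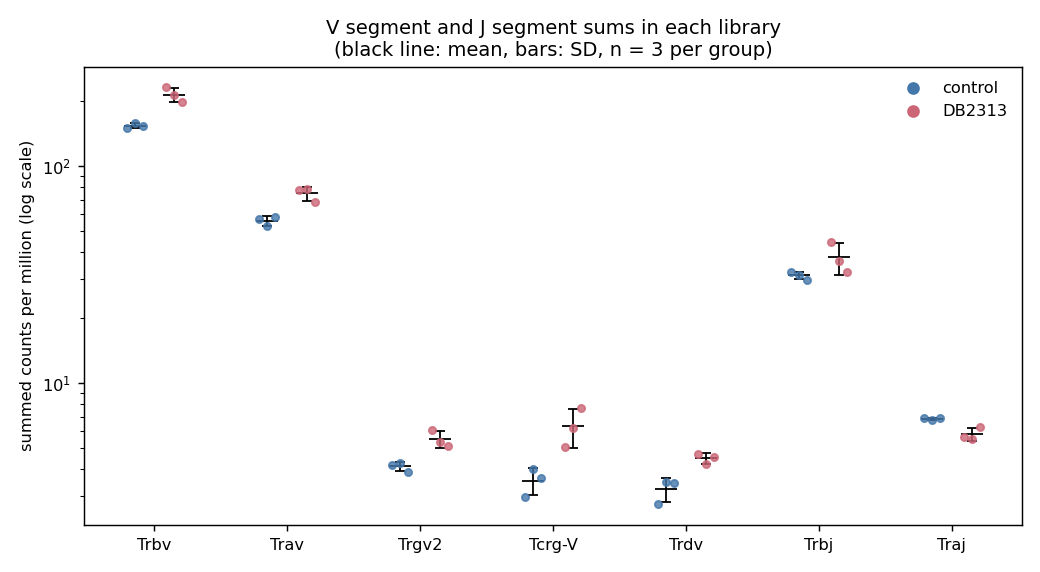
Summed CPM (log scale) of V segment families and of J segments in each library, with points for libraries, black lines for group means and bars for SD (n = 3 per group). The Trbv and Trav sums of all 3 DB2313 libraries lie above those of the control libraries, whereas the Traj sums lie below.

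The rise in V counts moved with a shift in the makeup of the libraries. All 20 genes of a T cell marker list (among them the receptor subunits Cd3e, Cd3d and Cd3g, and the kinase Lck) rose, with a median log2 change of 0.59, and their summed share went from 0.312% to 0.316% of library counts in control to 0.496% to 0.511% in DB2313 libraries, with none at 0. Of 25 macrophage markers, 21 fell, 3 rose (Marco, Trem2 and Ms4a7) and Vsig4 was at 0, and their summed share went from 1.48% to 1.51% down to 0.638% to 0.648%. Of 8 dendritic cell markers 6 fell and 1 rose, and of 8 neutrophil markers 7 fell and 1 rose. Of all genes tested, 20.8% rose and 24.6% fell by the same edgeR test. Scaled instead to the summed T cell markers, the Trbv and Trav sums were lower in DB2313 libraries, by log2 values of -0.11 (SE 0.05, edgeR adjusted p = 0.0443) and -0.17 (SE 0.06, edgeR adjusted p = 0.0183). With that scaling 1 V row was higher (Trav6-3) and 6 were lower, against 1.16% and 77.1% of all genes tested, whose median log2 change moved to -0.56. Trav6-3 was tested through the DB2313 group, since its control counts were all below the filter's count limit. The direction of the Trbv and Trav sums thus depends on whether they are read per library or per T cell marker count. The Trgv2 (-0.17, SE 0.17) and Trdv sums (-0.11, SE 0.19) also turned negative but did not pass (edgeR adjusted p = 0.356 and 0.609). The sum of the V rows with other names stayed positive (0.35, SE 0.19, edgeR adjusted p = 0.104). The part of the cell mixture in these results was not tested.

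Per segment, 23 of the 64 tested rows rose as counts per library by the edgeR test and 0 fell, also at an unadjusted p under 0.05 and by DESeq2, which called 17 higher. Of all 14883 genes tested, 20.8% rose and 24.6% fell by the same edgeR test, and by DESeq2 2647 rose and 3400 fell. A log2 change above 1 was reached by 7 of the called rows, against 1.38% of all genes tested. The groups did not overlap in CPM for 26 tested V rows that were higher and 2 that were lower, against 25.6% and 27.5% of all genes tested. The median log2 change was 0.44 over the tested V rows and 0.020 over all genes tested, and 57 V rows were positive and 7 negative. Among all 125 rows with counts, 96 had a higher mean CPM in DB2313 and 29 a lower mean.

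Most of the tested beta segments rose. Of the 19 tested Trbv rows, 14 rose by edgeR and 9 by DESeq2, against 20.8% of all genes tested by edgeR and 2647 of 14883 by DESeq2. The log2 change of all 19 was positive, from 0.053 to 0.78. By mean share over the 6 libraries the 5 with the highest usage were Trbv13-2, Trbv1, Trbv3, Trbv16 and Trbv2, with Trbv19 next at 6.73% of Trbv counts against 6.78% for Trbv2. In DB2313 libraries Trbv19 was the higher of these, at 7.08% ± 0.707 against 6.69% ± 0.121 (SD, n = 3), with overlapping ranges. Trbv13-2 had 304, 294 and 240 counts in control and 547, 447 and 505 in DB2313 libraries, a log2 change of 0.78 (SE 0.09, edgeR adjusted p = 1.02e-07). All 3 DB2313 libraries were above all 3 control libraries, and the call held in each of the 13 alternatives that did not rescale to T cell genes.

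Trbv16 had 226, 221 and 213 counts against 348, 338 and 321 (log2 0.55, SE 0.10, edgeR adjusted p = 5.43e-05). Trbv1, the segment farthest from the D and J segments, had 257, 249 and 261 against 388, 321 and 317 (log2 0.35, SE 0.10, edgeR adjusted p = 0.00508). Trbv2 had 178, 199 and 169 against 285, 237 and 248 (log2 0.43, SE 0.11, edgeR adjusted p = 0.00261). In each of these the DB2313 counts were all higher than the control counts. Trbv3 had 294, 270 and 208 against 361, 334 and 290 counts, and here the groups overlapped in counts. Its log2 change of 0.29 (SE 0.11, edgeR adjusted p = 0.0339) lost the call by DESeq2 (adjusted p = 0.0582) and without control replicate 2 or 3 or DB2313 replicate 1 or 2 (edgeR adjusted p from 0.0501 to 0.183).

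Trbv31, which lies beyond the constant genes on the opposite strand and is joined by inversion, had 137, 141 and 143 counts against 232, 196 and 176 (log2 0.46, SE 0.13, edgeR adjusted p = 0.00574). Its change was inside the range of the other beta segments. The Trbv rows that were not called were Trbv12-1, Trbv15, Trbv23, Trbv29 and Trbv30, of which Trbv23 and Trbv30 had at most 25 counts in any library. Trbv4, Trbv5 and Trbv21, with at most 10 counts in any library, were too low to be tested, and Trbv4 and Trbv5 overlap a long noncoding RNA row on the same strand.

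Alpha segments were counted in smaller numbers per row and spread more widely. Of the 39 tested Trav rows 7 rose (Trav6-3, Trav7-4, Trav9-4, Trav12-1, Trav14-3, Trav14n-3 and Trav21-dv12) and 0 fell by edgeR, also at an unadjusted p under 0.05 and by DESeq2, and 32 of the 39 log2 changes were positive, between -0.84 and 1.65. Trav6-3 and Trav21-dv12 were among the rows that entered through the DB2313 group, in which they were higher. The share that rose, 17.9%, was below the 20.8% of all genes tested. Trav14n-3, the alpha row with the highest level, had 44, 32 and 38 counts in control and 73, 70 and 73 in DB2313 libraries (log2 0.86, SE 0.22, edgeR adjusted p = 0.00243). Trav7-4 had 49, 26 and 23 counts against 81, 56 and 78 (log2 1.07, SE 0.26, edgeR adjusted p = 0.00158). Both had DB2313 counts above all control counts. The other leaders gave log2 changes of 0.55 for Trav9-1, 0.31 for Trav14-2 and 0.08 for Trav14d-3-dv8, none of which passed the test.

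Usage, the share of all V counts, was then compared by setting each library's size to its V total. Trbv took 69.6% ± 0.963 of V counts in control and 69.8% ± 1.05 in DB2313 libraries, and Trav took 25.4% ± 1.43 and 24.5% ± 0.863 (SD, n = 3). In a single library the Trbv share ran from 68.9% (95% Wilson interval 67.3% to 70.3%, control replicate 3) to 71.0% (69.8% to 72.1%, DB2313 replicate 1). The log2 change of the share was 0.0053 for Trbv (SE 0.07), -0.05 for Trav (SE 0.08), -0.06 for Trgv2 (SE 0.19) and 0.0078 for Trdv (SE 0.21), and 0 of the 4 passed the edgeR or the DESeq2 test or reached an unadjusted p under 0.05.

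Usage within the families was compared next. Trbv shares of different libraries correlated at r = 0.955 to 0.993 within groups and 0.925 to 0.986 between groups over the 22 rows, and Trav shares at 0.821 to 0.913 and 0.789 to 0.877 over the 108 rows. These are descriptions across segments, which are not independent replicates. The effective number of segments (the exponential of the Shannon entropy of the shares, which is high when usage is even) was 16.3 ± 0.274 in control and 16.0 ± 0.0765 in DB2313 libraries for Trbv (two-sided exact permutation p = 0.4, n = 3 each). For Trav it was 52.2 ± 2.10 and 49.7 ± 1.03 (two-sided exact permutation p = 0.2, n = 3 each). Copies were also merged into families by name, leaving out the d or n suffix and all that follows the first dash. This pools distinct segments too, such as Trbv13-1, Trbv13-2 and Trbv13-3. With copies merged in this way, the groups did not overlap, at 12.8 ± 0.127 and 11.9 ± 0.335 for Trav and 12.3 ± 0.120 and 11.9 ± 0.148 for Trbv (SD, n = 3, two-sided exact permutation p = 0.1 each). The 5 Trav segments with the most counts pooled over the 6 libraries held 18.7% ± 1.34 of Trav counts in control and 21.6% ± 0.631 in DB2313 libraries, also without overlap (SD, n = 3, two-sided exact permutation p = 0.1). The DB2313 libraries gave more of the pooled counts, so this choice favours segments high in them. This difference is therefore partly built in and no conclusion on usage is drawn from it. The smallest p that 3 against 3 libraries can give is 0.1.

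**Figure D2:**
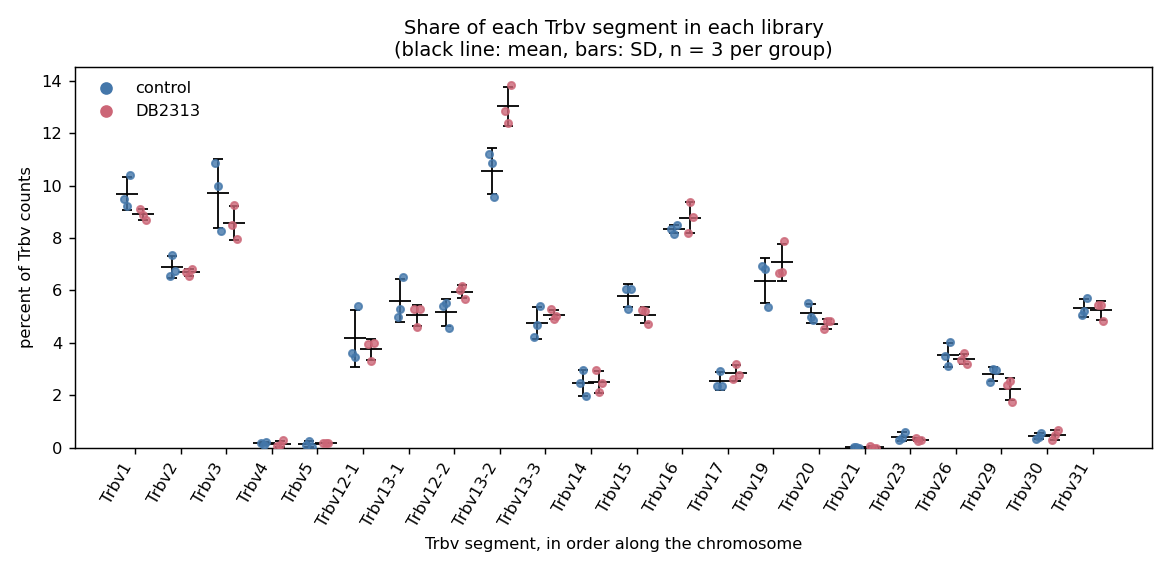
Percent of Trbv counts on each of the 22 Trbv segments in each library, in chromosomal order, with points for libraries, black lines for group means and bars for SD (n = 3 per group). Trbv13-2 has the highest share in both groups and is the segment whose DB2313 points lie farthest above its control points.

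Of the 64 tested segments, 6 were higher and 4 lower in share by the edgeR test at adjusted p below 0.05. In that fit 1.83% of all genes tested were higher and 69.2% lower, because most genes of the library fell relative to V segments, so an adjusted p under 0.05 there is a weak criterion and the fit gave nearly the same spread to all genes. With DESeq2 1 segment was higher (Trbv13-2) and 2 were lower (Trav8n-2 and Trav4-4-dv10), against 1.34% and 65.9% of all genes tested. With the spread of the TMM fit, an alternative added after seeing the data, 3 were higher (Trbv13-2, Trav6-3 and Trav7-4) and 3 lower (Trav8n-2, Trav13-2 and Trav4-4-dv10), against 2.05% and 71% of all genes tested. The groups did not overlap in share for 6 tested segments that were higher and 7 that were lower, against 2.32% higher and 69.8% lower of all genes tested.

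Trbv13-2 went from 10.5% ± 0.876 to 13.0% ± 0.752 of Trbv counts (SD, n = 3). The shares were 11.2%, 10.9% and 9.55% in control and 12.9%, 12.4% and 13.8% in DB2313 libraries, with 95% Wilson intervals of 10.1% to 12.5% for the highest control and 11.3% to 13.5% for the lowest DB2313 library. The groups did not overlap, although those intervals did. A call in share of V counts without overlap was a condition for naming Trbv13-2 among the share changes, so the lack of overlap is no added support. The log2 change of its share of V counts was 0.31 (SE 0.11, edgeR adjusted p = 0.00758), and without control replicate 3 it was 0.24 (edgeR adjusted p = 0.0893). Its family members did not pass the test, with log2 changes of share of 0.10 (SE 0.15) for Trbv13-3 and -0.14 (SE 0.14) for Trbv13-1. Per length, Trbv13-2 was also first, at 13.8% of Trbv counts per base, followed by Trbv1 at 8.84%, Trbv16 at 8.53% and Trbv3 at 7.97%, whereas the longer row Trbv2 dropped to rank 11 at 4.81%. The order of Trbv1, Trbv16 and Trbv3 differed between the groups. In CPM per kilobase they stood at 35.7 ± 2.20, 32.1 ± 0.623 and 32.7 ± 4.22 in control libraries (SD, n = 3), where Trbv1 lay above Trbv16 without overlap and Trbv3 overlapped both. In DB2313 libraries they stood at 45.5 ± 4.54, 46.9 ± 2.98 and 40.2 ± 4.81 (SD, n = 3), where Trbv16 lay above Trbv3 without overlap and Trbv1 overlapped both.

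Among alpha segments, Trav4-4-dv10, which can serve the alpha or the delta chain, had 42, 23 and 35 counts in control and 29, 14 and 24 in DB2313 libraries. As a share of Trav counts it went from 3.43% ± 0.804 to 1.66% ± 0.531 (SD, n = 3), with a log2 change of share of V counts of -1.11 (SE 0.34, edgeR adjusted p = 0.00197). The call held in the 13 alternatives run on the single row, among them all 6 in which 1 library was left out. It did not hold for the merged Trav4 family, which had a log2 change of share of -0.34 (SE 0.23, edgeR adjusted p = 0.184). Besides the d and n copies, that merge pools distinct segments such as Trav4-2 and Trav4-3. That family took 6.04%, 5.29% and 5.77% of Trav counts in control and 3.83%, 6.74% and 3.42% in DB2313 libraries, and its highest library, DB2313 replicate 2, is the one that held all counts of the near copy Trav4n-4 and the fewest of Trav4-4-dv10. As counts per library the log2 change of Trav4-4-dv10, -0.64 (SE 0.33), did not pass (edgeR adjusted p = 0.124). Trav8n-2 had 24, 14 and 17 counts against 13, 7 and 12, a log2 change of share of -1.30 (SE 0.44, edgeR adjusted p = 0.00563), which lost the call without control replicate 1 (-1.09, edgeR adjusted p = 0.0691). DB2313 replicate 2 was below the filter's count limit for Trav8n-2, so this row was tested through the control group, in which it was higher. The groups did not overlap in share for either, but a call in share without overlap was a condition for naming them, so this is no added support. In counts the groups overlapped for Trav4-4-dv10.

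Trav13-2 (18, 16 and 12 counts against 13, 6 and 11) and Trav6-3 (8, 3 and 8 against 15, 26 and 22) had log2 changes of share of -1.14 (SE 0.47) and 1.19 (SE 0.49), with edgeR adjusted p of 0.0222 in each. All control counts of Trav6-3 were below the filter's count limit, so it was tested through the DB2313 group, in which it was higher. Trav13-2 was tested through the control group, since DB2313 replicate 2 was below that limit. Neither passed by DESeq2 (adjusted p = 0.0520 and 0.0622), and each lost its call in 3 of the 6 fits that left out a library. For Trav13-2 these were control replicates 1 and 2 and DB2313 replicate 2, and for Trav6-3 control replicate 2 and DB2313 replicates 2 and 3. With copies merged neither family passed, and the Trav6 family had the opposite sign to Trav6-3, with log2 changes of share of -0.17 for Trav6 (SE 0.18, edgeR adjusted p = 0.388) and -0.20 for Trav13 (SE 0.18, edgeR adjusted p = 0.328). Both families pool distinct segments as well as copies. Trav6-3 shared 87.2% of its windows with Trav6d-3. The remaining calls (Trav7-4, Trav12-1, Tcrg-V4, B230359F08Rik and Trav6n-7) were of segments whose groups overlapped in share. B230359F08Rik took 0.0255%, 0.340% and 0.0274% of V counts in control and 0.183%, 0.496% and 0.324% in DB2313 libraries. Its control replicates 1 and 3 were below the filter's count limit, so it was tested through the DB2313 group, in which its mean was higher. Trav6n-7 had 0, 20 and 18 counts in control and 0, 0 and 23 in DB2313 libraries, so 3 of the 6 libraries carried its counts. It shared all of its windows with Trav6d-7.

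**Figure D3:**
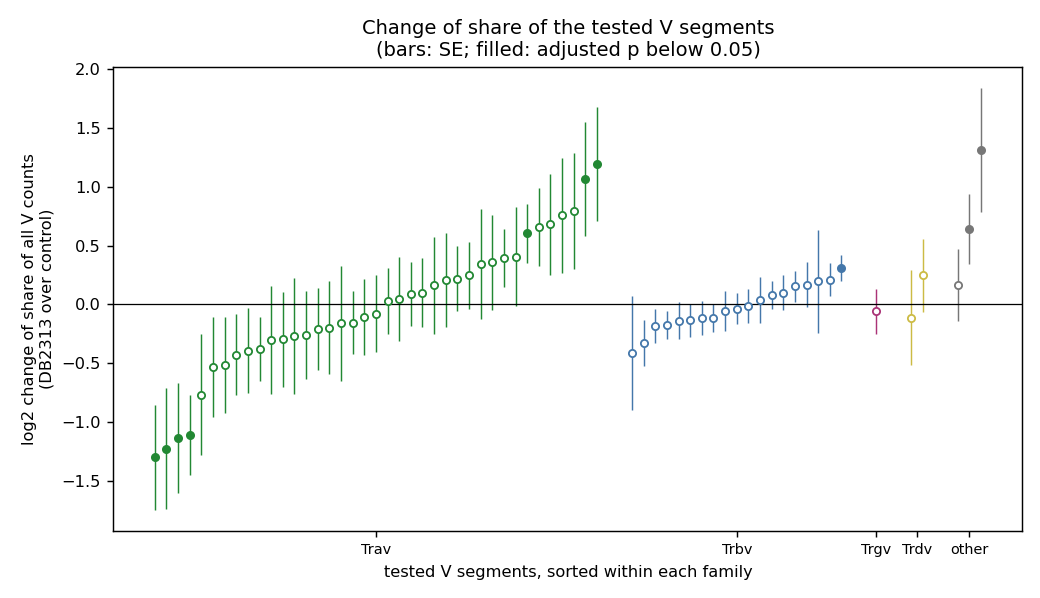
Log2 change of the share of all V counts (DB2313 over control) for the 64 tested segments, sorted within each family, with SE as bars and filled points for edgeR adjusted p below 0.05. The Trbv points lie close to 0 with short bars and 1 call, and the Trav points spread from -1.30 to 1.19 with longer bars.

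In families merged by name it does not matter which copy a read was given to, but distinct segments are pooled as well. The Trav14 family was the most used alpha family (19.7% ± 1.19 of Trav counts in control and 20.8% ± 1.58 in DB2313 libraries). The Trav7 family went from 11.0% ± 0.750 to 14.3% ± 2.01 of Trav counts and the Trav8 family from 5.87% ± 1.26 to 3.69% ± 0.192, and in both the groups did not overlap (two-sided exact permutation p = 0.1 each, n = 3 per group). The Trbv13 family held 20.9% ± 0.552 and 23.2% ± 1.16 of Trbv counts, again without overlap (two-sided exact permutation p = 0.1, n = 3 per group). Among the 21 Trav and 19 Trbv merged families, the groups also did not overlap for Trav21, which was higher. The same held for Trav1, Trav2, Trav17, Trbv1, Trbv15 and Trbv20, which were lower (two-sided exact permutation p = 0.1 each). Since 0.1 is the smallest p these tests allow, none can pass a 0.05 threshold. On merged rows edgeR called Trav7 higher (log2 change of share 0.32, SE 0.15, adjusted p = 0.0482) and Trav8 lower (-0.73, SE 0.24, adjusted p = 0.00472), with B230359F08Rik as the only other call, and Trbv13 did not pass (0.15, SE 0.09, adjusted p = 0.127). As stated above, B230359F08Rik was tested through the DB2313 group, in which its mean was higher.

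How a Trav row was counted moved with how much of its sequence was unique. The 36 Trav rows with all 50-base windows present in another V row had a median of 1.5 counts over the 6 libraries and included 14 of the 17 rows at 0. The 64 rows with part of their windows shared had a median of 71.5 counts and held 89.8% of Trav counts, and the 8 rows with no shared window had a median of 42. Across the 108 rows Spearman's rho between the shared percentage and the total count was -0.640, given as a description. By suffix, 11 of 34 d rows and 5 of 28 n rows were at 0, against 1 of 46 rows with no suffix.

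Several copies had most of their counts in a single library. Of the 74 Trav rows with at least 10 counts, 7 had over 50% of them in 1 library, against 0 of 21 Trbv rows. Trav rows mostly had fewer counts each, so the families are compared at unlike depth. Trav4n-4 had 42 counts, all in DB2313 replicate 2, although it is identical in coding sequence to Trav4d-4. Trav14n-2 had 20 counts in control replicate 1 and 1 elsewhere, and Trav15n-2 had 10 of its 14 counts in DB2313 replicate 3. Of these 7 rows 5 had all windows shared, and Trav12n-3 had 99.7% shared, so the counting of copies is uncertain there. The remaining row, Trav23, shared no window and had 11 counts in all. The handling of reads with several matches is not given in the sources used here, and its part in these counts was not tested.

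**Figure D4:**
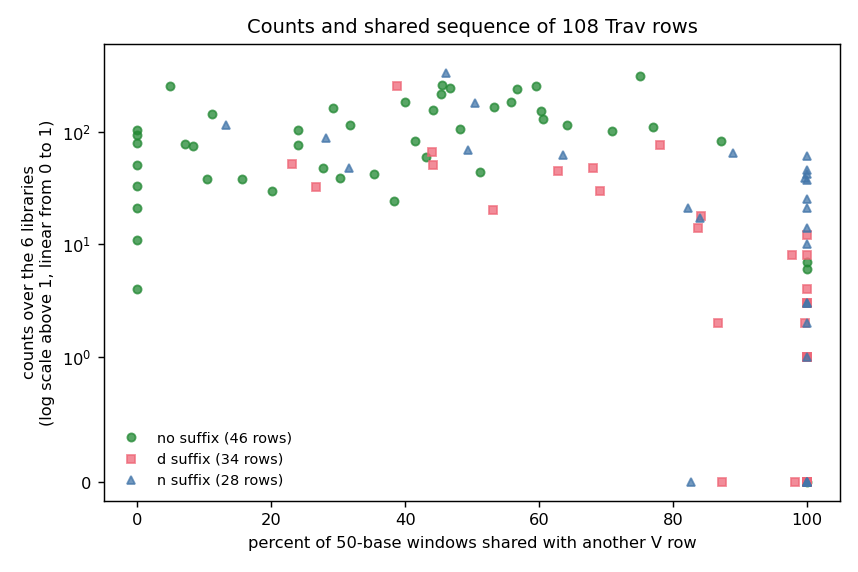
Counts over the 6 libraries (log scale above 1) of the 108 Trav rows against the percent of their 50-base windows that occur in another V row or V pseudogene, by suffix, with points at the same place drawn over each other. Rows at 0 counts lie at 82.6% or more of shared windows.

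The constant genes that V segments are spliced to also rose. Trac had 3244, 2888 and 2843 counts in control and 5000, 4813 and 5034 in DB2313 libraries (log2 0.66, SE 0.04, edgeR adjusted p = 2.68e-13). Trbc1 rose by a log2 of 0.66 (SE 0.03) and Trbc2, a near copy of Trbc1, by 0.54 (SE 0.04). The 4 gamma and delta constant genes that could be tested, Trdc, Tcrg-C1, Tcrg-C2 and Tcrg-C4, rose by log2 values of 0.69, 0.73, 0.67 and 0.89. All 7 tested constant genes of 8 passed the edgeR test upward, against 20.8% of all genes tested.

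Relative to their own constant genes, V segment counts were lower in DB2313 libraries. There were 32.2 ± 1.18 Trav counts per 100 Trac counts in control and 27.2 ± 1.94 in DB2313 libraries (SD, n = 3), a log2 difference of -0.25 between group means without overlap (two-sided exact permutation p = 0.1, n = 3 each). There were 29.2 ± 1.03 and 27.1 ± 1.15 Trbv counts per 100 Trbc1 and Trbc2 counts, a log2 difference of -0.11, again without overlap (two-sided exact permutation p = 0.1, n = 3 each). Both values are the smallest p the design allows. In the fit across all genes scaled to the constant genes, the log2 change was -0.19 for Trav (SE 0.06, edgeR adjusted p = 0.00691) and -0.14 for Trbv (SE 0.05, edgeR adjusted p = 0.0154). Among single V rows 1 was higher (Trav6-3) and 7 were lower in that fit, against 0.981% and 78.3% of all genes tested. As stated above, Trav6-3 passed the filter only through the DB2313 group.

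Fewer of the joining and diversity segments could be tested. Of 70 J rows 14 could be tested, and 1 rose (Trbj2-7, log2 0.55, SE 0.20, edgeR adjusted p = 0.0256), against 20.8% of all genes tested. The median log2 change of the 14 was 0.098. The Trbj sum was 588, 541 and 491 counts in control and 830, 622 and 599 in DB2313 libraries, and in CPM the groups overlapped (two-sided exact permutation p = 0.2, n = 3 each). Per 100 Trbv counts there were 20.4 ± 1.13 Trbj counts in control and 17.7 ± 1.60 in DB2313 libraries, without overlap (two-sided exact permutation p = 0.1, n = 3 each). The Traj sum was 124, 116 and 113 counts in control and 104, 94 and 116 in DB2313 libraries, or 6.83 ± 0.0821 and 5.81 ± 0.428 CPM, where the DB2313 libraries were all lower (two-sided exact permutation p = 0.1, n = 3 each). Trbd1, a D segment, had 48, 53 and 44 counts against 45, 35 and 30, a log2 change of -0.46 (SE 0.25) that did not pass (edgeR adjusted p = 0.140).

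**Figure D5:**
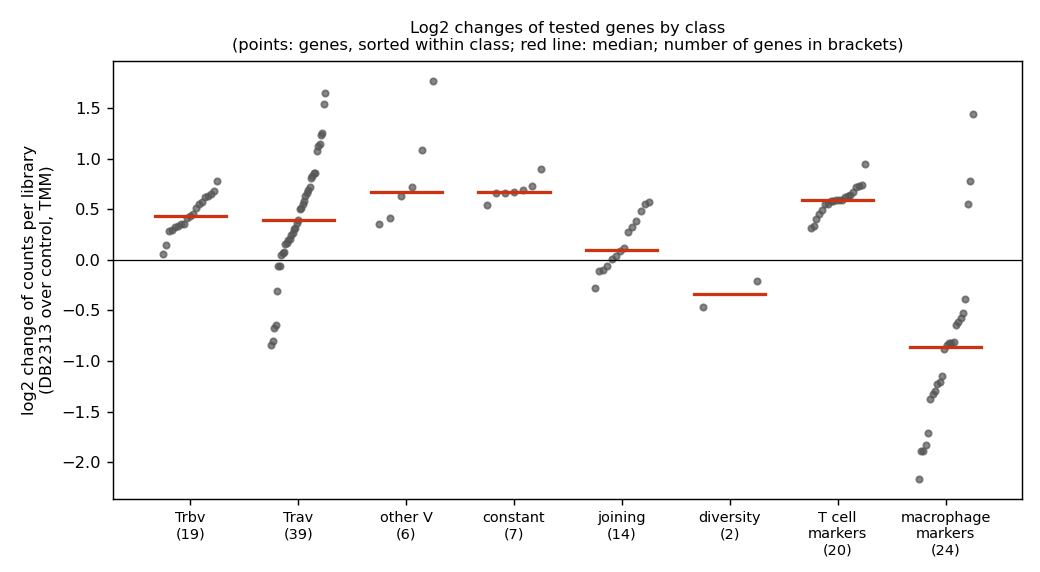
Log2 changes of counts per library (DB2313 over control) of tested genes, with points for genes sorted within each class and a red line at the class median. The tested Trbv segments, constant genes and T cell markers all lie above 0, the 24 macrophage markers lie mostly below, and the J segments lie around 0.

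The other genes of the receptor pathway, on a list chosen with earlier results of these data known, mostly rose. All 7 genes of the CD3 subunits and coreceptors rose, for example Cd3d by a log2 of 0.74 (SE 0.04), Cd8b1 by 0.63 (SE 0.04) and Cd4 by 0.47 (SE 0.03). All 11 proximal signalling genes rose, among them the kinases Lck (0.64, SE 0.03) and Zap70 (0.62, SE 0.05). Of the 10 transcription factors of the loci 8 rose, with 1 fall, that of Runx1 (-0.32, SE 0.05). Of the recombination genes Dntt, which adds bases at the joints, rose by 0.73 (SE 0.13), Rag1 did not pass (0.40, SE 0.33), and Rag2 and Ptcra were too low to be tested. Over the whole list 27 of 30 tested genes rose and 1 fell, with a median of 0.48, against 20.8% and 24.6% of all genes tested.

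Unconventional T cells were looked for through their segments. Trav11 and Trav11d, used by the invariant receptor of NKT cells, had 6 and 3 counts over the 6 libraries, and all their windows were shared with other V rows. Trav1, used by the invariant receptor of MAIT cells, had 6, 6 and 3 counts in control and 4, 2 and 0 in DB2313 libraries, below the filter. Of the 6 tested genes of the invariant T cell list, Slamf6 and Klrb1c rose, Cd1d1 and Mr1 fell and 2 did not pass, and the summed share of the list went from 0.0253% to 0.0261% of library counts in control down to 0.0179% to 0.0188% in DB2313 libraries. Cd1d1 and Mr1 encode the molecules that present antigen to these cells and are not made by T cells alone. Of the gamma-delta T cell marker list, all 8 genes present in the table rose, with a median log2 change of 0.71 (4 of the 8 are the constant genes given above), and its summed share of library counts was below that of the T cell list (0.0068% to 0.0075% in control libraries). Beside both lists, 20.8% of all genes tested rose and 24.6% fell by the edgeR test.

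Of the gamma segments, Trgv2 on the minus strand of chromosome 13 (19336573-19337167) had the highest level per length. Tcrg-V4 rose as counts, with 25, 20 and 24 in control and 29, 44 and 81 in DB2313 libraries (log2 1.09, SE 0.33, edgeR adjusted p = 0.00927), and overlaps an antisense row with 14 counts in all. Tcrg-V1 had 19, 35 and 23 against 48, 36 and 41 counts, a log2 change of 0.63 (SE 0.29) that did not pass. Of the delta segments, Trdv4 had 19, 26 and 29 against 54, 39 and 35 counts, without overlap between groups, and its log2 change of 0.72 (SE 0.30) just missed the threshold (edgeR adjusted p = 0.0516). Trdv5, on the minus strand and overlapping the row of Trdc, had 8, 18 and 20 against 27, 16 and 19 counts, and its log2 change of 0.35 (SE 0.40) did not pass. Trdv1 and Trdv2-2 had at most 23 counts in any library and could not be tested.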

How the data were processed

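RNA of 6 mouse coculture libraries (control 3, DB2313 3) was sequenced by the study. The deposited table gives raw read counts per gene, made by the authors and not normalized, with gene coordinates, length and biotype. The submitters' processing notes name CASAVA 1.8, HISAT2 2.0.5 and featureCounts 1.5.0-p3, whereas the study's methods name LifeScope. The genome build, annotation, strand setting and handling of reads with several matches are not given in the sources used here, but all V rows have the coordinates of GENCODE M21 (GRCm38).

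Samples were grouped by their labels. Counts of all genes were filtered with filterByExpr (minimum count 10, total 15), scaled by TMM and tested with edgeR 4.0.16 (quasi-likelihood, R 4.3.3), with Benjamini-Hochberg adjustment over all genes tested and a call at adjusted p below 0.05. Usage was tested in the same fit with each library size set to its V total, and family sums with the V rows replaced by their sums. Single values per library were compared by two-sided exact permutation tests (scipy 1.17.1). Sequence sharing was the percent of 50-base windows of a row's transcripts that occur in any other V row or V pseudogene. DESeq2 1.42.0, other filters and scalings, copies merged into families by name, a replicate block and leaving out each library were the alternatives. Same-numbered libraries did not deviate together (r = -0.00, -0.01 and -0.02), so numbers were not taken as pairs.

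Segments were named if they were among the 5 most used of their family, if called in share with at least 10 counts in every library of the higher group and no overlap (5 largest each way), if used by invariant T cells, or Trbv31. Others named were chosen after their values were seen. The members and lists were chosen with earlier results of these data known. Recombination signals beside the segments were not analysed here.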

Additional observations from a re-analysis of the deposited data

How the results depend on the processing

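As counts per library, more V segments rose than fell (23 and 0) under each of the other filters, under library size and upper quartile scaling (33 and 29 higher, with the median of all genes moved to 0.11 and 0.083), with DESeq2 and with the replicate block (22 higher). Of all 14883 genes tested, 4932 were higher under library size and 4319 under upper quartile scaling, against 3096 in the main fit. Without a filter 1 segment fell, Trav14n-2. Scaled to T cell markers 1 segment was higher and 6 lower, and scaled to the T cell receptor constant genes 1 was higher and 7 lower. As counts per library, the median log2 change was 0.59 for the T cell markers and 0.67 for the constant genes, against 0.44 for the tested V rows. The cause was not tested. A log2 change above 1 was reached by 7. Leaving out each library gave 17 to 27 higher and 0 to 1 lower. In share, 6 were higher and 4 lower, DESeq2 gave 1 and 2, the spread of the TMM fit 3 higher, at least 10 counts in every library 1 lower, merged copies 2 and 1, and a log2 change above 1 left 3 higher. Leaving out each library gave 3 to 4 higher and 2 to 5 lower. Control replicates 2 and 3 (3 higher each) and control replicate 2 and DB2313 replicate 2 (2 lower each) moved these counts by over 1.5 times, and without DB2313 replicate 3 the only fall as counts was that of Trav6n-7. All windows of Trav6n-7 were shared with Trav6d-7.

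Family sums reversed under T cell marker and constant gene scaling, to -0.17 and -0.19 for Trav, -0.11 and -0.14 for Trbv, -0.17 and -0.20 for Trgv2, and -0.11 and -0.14 for Trdv. Trgv2 passed the test under library size (0.50) and upper quartile scaling (0.47) and with the Tcrg-V rows added (0.62). Trdv lost its call with DESeq2 (0.47), without a filter (0.48), with the replicate block (0.48) and without each library (0.37 to 0.53). Shares of families moved in sign around 0, for Trbv between -0.0068 and 0.017 and for Trdv between -0.085 and 0.058 on leaving out a library, and for Trgv with Tcrg-V added to 0.16. The cause of these shifts was not tested. Named segments reversed under T cell marker and constant gene scaling, to -0.50 and -0.53 for Trav14d-3-dv8, -0.27 and -0.30 for Trav14-2, -0.034 and -0.058 for Trav9-1, -0.23 and -0.26 for Trbv1, -0.29 and -0.32 for Trbv3, -0.037 and -0.065 for Trbv16, -0.15 and -0.18 for Trbv2, -0.17 and -0.20 for Trgv2, -0.23 and -0.25 for Trdv5, and -0.13 and -0.16 for Trbv31. On leaving out a library Trav14d-3-dv8 ranged from -0.11 to 0.24.

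Of 328 values of named segments under an alternative, 269 kept direction and call. The replicate block changed the call of no named segment and gave 5 higher and 4 lower in share, and the numbers are shared by label only. With 3 libraries a group and few counts per row, the lowest log2 change of counts of a Trav row that passed the test was 0.72.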
